A study of Mus musculus with 42 samples.

Results

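The genes examined here are 10 members of the Notch pathway: the receptors Notch1, Notch2 and Notch3, the ligands Dll1, Jag1 and Jag2, and the transcription factors Hes1, Hes6, Hey1 and Heyl. They were picked by symbol, and each was found as 1 row among the 24466 gene symbols of the RNA-seq count files. All 10 passed the filter on low counts that left 14836 genes for testing. Hey1 passed it through the satellite cells alone, since no more than 1 iPax7 library held over 2 reads of this gene.

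RNA was sequenced from mouse iPax7 cells kept in 0.75 µg/ml doxycycline (+Dox, 3 libraries), from iPax7 cells 3 days after the drug was taken away (-Dox, 2 libraries) and from satellite cells (3 libraries). iPax7 cells are muscle precursors made from 1 embryonic stem cell line that carries a Pax7 transgene switched on by doxycycline, and they were sorted from embryoid bodies on day 5 as PDGFαR-positive, Flk-1-negative cells. The inducible Pax7 transgene is thus present in the +Dox and the -Dox cells alike. The satellite cells, the stem cells of adult muscle, were labelled as in vivo material and were isolated from muscle by way of a Pax7-ZsGreen reporter, and neither their age nor their sex was given in the sources used here. The treatment label gives the doxycycline dose in µg/ml, whereas the growth protocol writes it in mg/ml. The same iPax7 conditions were profiled by ATAC-seq, with further points at 12 h and 24 h after withdrawal, and by ChIP-seq for 4 histone marks and Pax7, and ATAC-seq was also run on satellite cells.

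Notch signaling passes between touching cells. A ligand of the Delta or Jagged family on 1 cell binds a Notch receptor on its neighbour, the receptor is cut by an ADAM protease and then by γ-secretase, and the freed intracellular domain joins the DNA-binding protein Rbpj to switch on genes of the Hes and Hey families, which encode basic helix-loop-helix repressors. In skeletal muscle the pathway is known for holding satellite cells in quiescence and for restraining myogenic differentiation. Hes6 is the exception within its family, since it opposes Hes1 and is known to favour muscle differentiation.

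The libraries held between 39010958 and 54674619 counts on genes, and the 3 satellite cell libraries were the shallowest. The share of reads that the counting set aside as aligning to several places was 23.6 to 30.7% in satellite cells and 7.11 to 7.60% in iPax7 cells. No group holds both cell sources, so cell source and library preparation cannot be told apart. Pax7 averaged 12833 normalised counts in +Dox, 245 in -Dox and 5962 in satellite cells, which matches the labels. Myog, a factor of differentiating muscle, averaged 4150 in +Dox, 174963 in -Dox and 2452 in satellite cells. Myod1, the determination factor of myoblasts, averaged 200.2 in +Dox, 139.6 in -Dox and 22962 in satellite cells. Myf5, a factor of myogenic cells, averaged 143916, 11580 and 122739 in the same order and was not called between +Dox and satellite cells (adjusted p = 0.486). The summed level of 10 satellite cell markers ran from 721362 to 1071929 normalised counts in satellite cells, from 188495 to 266968 in +Dox and from 52204 to 55968 in -Dox. Most of it was Sdc4 in satellite cells (476110 to 786929) and Myf5 in +Dox (111006 to 190092). Of the 10 markers, 8 were called lower and 1 (Pax7) higher in +Dox than in satellite cells, and 10 were called lower in -Dox. Over all genes tested, 25.1% were called lower and 19.8% higher in +Dox, and 20.9% lower in -Dox. A marker at or near 0 in every iPax7 library passed the filter on low counts through the satellite cells alone, so its test is not given as support. Normalised counts are counts scaled to a common library size by edgeR's TMM method. Nothing in the sources used here says whether libraries of a group came from separate cultures or animals, so p-values measure the spread between these libraries, which may be technical.

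The satellite cell libraries also held more RNA of marker genes of other cell types and of immediate early genes, which are known to respond to tissue dissociation. The sum of 8 endothelial markers was 18511 to 26752 normalised counts there, against 60.7 to 167.6 in +Dox and 4.60 to 48.0 in -Dox, with Cdh5, Kdr and Cldn5 at 0 in every +Dox library and Cdh5, Emcn and Esam at 0 in every -Dox library. The sum of 6 smooth muscle and pericyte markers was 13140 to 25861 in satellite cells, 46.4 to 296.9 in +Dox and 588.9 to 677.3 in -Dox, with Kcnj8 at 0 in every iPax7 library and Myh11 in +Dox. The sum of 6 blood markers was 1316 to 3562 in satellite cells, 157.5 to 463.6 in +Dox and 182.0 to 205.8 in -Dox, and Ptprc, Itgam and Cd3e were at 0 in all 5 iPax7 libraries. The sum of 5 fibroadipogenic markers was 43545 to 64326 in satellite cells, 2675 to 9745 in +Dox and 2305 to 2402 in -Dox, with Lum at 0 in +Dox and Pdgfra at 0 in -Dox. In +Dox nearly all of this sum came from Ly6a (2647, 2899 and 9643 normalised counts), which was singled out after its values were seen. The sum of 4 Schwann cell markers was 1929 to 3090, 124.7 to 275.0 and 117.6 to 259.4 in the same order of groups, with Sox10 at 0 in the iPax7 libraries. The sum of 7 immediate early genes was 370249 to 849008 in satellite cells, 2941 to 3182 in +Dox and 3096 to 3247 in -Dox. Called lower than in satellite cells in both iPax7 groups were 8 of 8 endothelial and 7 of 7 immediate early genes. So were 4 of 5 tested blood and 4 of 5 fibroadipogenic markers. The count was 6 of 6 (+Dox) and 4 of 6 (-Dox) for smooth muscle markers and 3 of 4 and 1 of 4 for Schwann cell markers. Over all genes tested, 25.1% were called lower in +Dox and 20.9% in -Dox. Markers at or near 0 in iPax7 cells, such as Cdh5, passed the filter on low counts through the satellite cells alone. Their tests are not given as support. Of 4 markers of pluripotent cells, Pou5f1, Nanog and Dppa3 were at 0 in every library. Several Notch genes are known to be expressed in vessel walls. The part of vessel cells in the differences below was not tested. In bulk RNA, fewer cells of a type and less RNA per cell cannot be told apart.

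Between satellite cells and iPax7 cells most of the 10 genes differed, whereas withdrawal of doxycycline moved only Heyl among them past the threshold. Against satellite cells, 7 of the 10 genes were lower in +Dox (Notch1, Notch2, Notch3, Dll1, Jag1, Hey1 and Heyl), and Hes6 was higher. The same 7 were lower and Hes6 was higher in -Dox. Hey1 is counted here by its call, but it passed the filter through the satellite cells alone, so its tests are not given as support. Between -Dox and +Dox, Heyl rose and the other 9 did not pass the test. A gene was called when its p from the quasi-likelihood test of edgeR, adjusted over all 14836 genes after Benjamini and Hochberg, was under 0.05, with 1 estimate of the spread for all 8 libraries. Over all genes tested, 44.9% were called between +Dox and satellite cells (25.1% lower and 19.8% higher in +Dox), 39.0% between -Dox and satellite cells (20.9% lower and 18.1% higher in -Dox) and 7.7% between -Dox and +Dox (4.66% higher and 3.04% lower in -Dox). The median log2 fold change of the 10 genes was -4.23 in +Dox and -4.15 in -Dox against satellite cells, beside -0.17 and -0.23 over all genes, and it was 0.05 between -Dox and +Dox, beside 0.00 over all genes. The 3 comparisons share libraries and are not independent of each other.

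**Figure D1:**
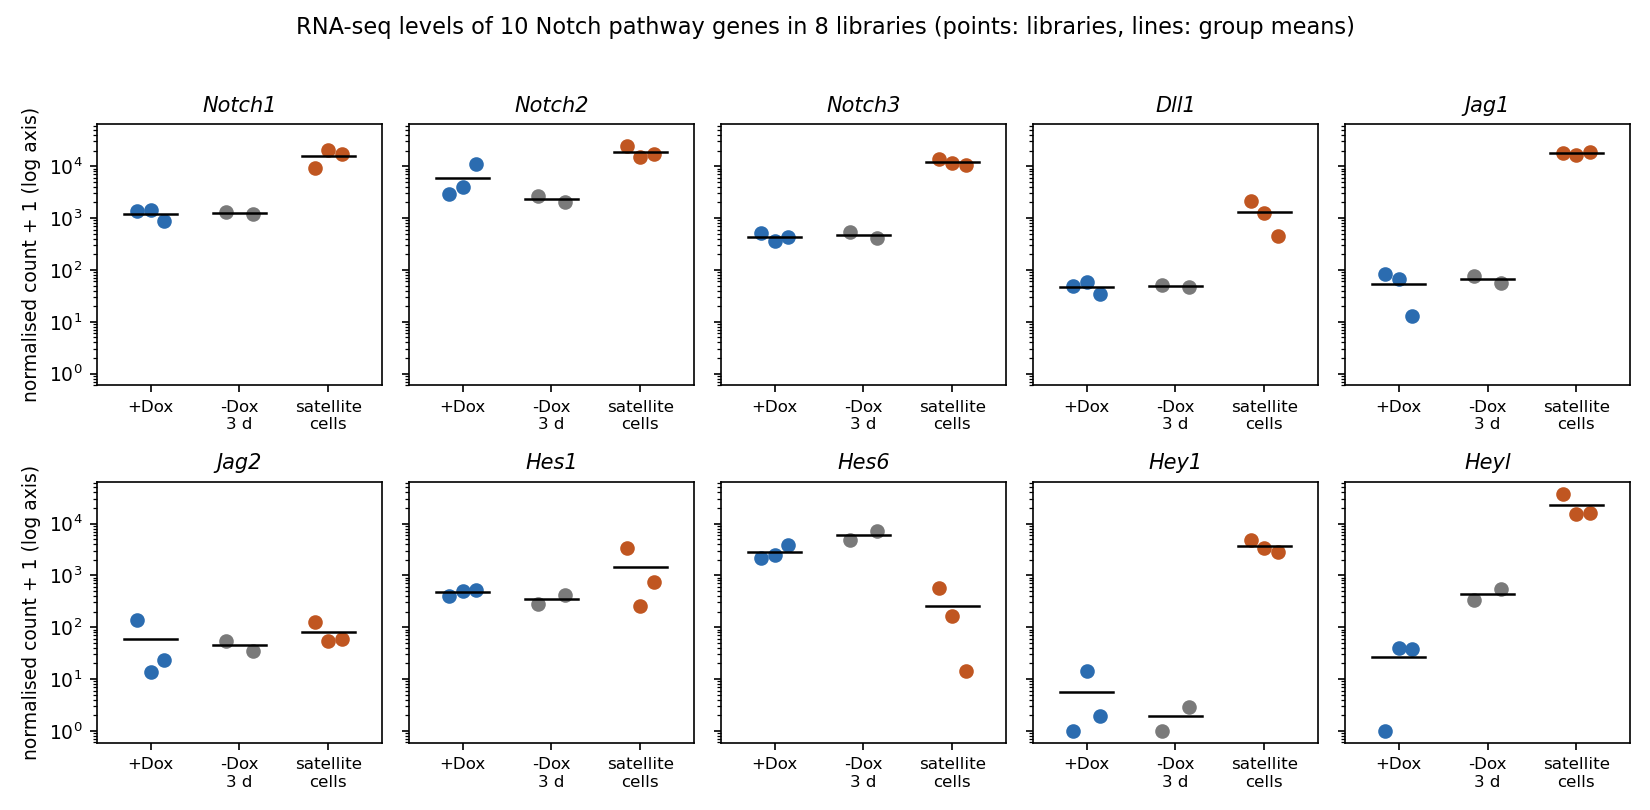
Normalised count plus 1 (log axis) of each gene in the 8 RNA-seq libraries, with a point for each library and a line at each group mean. Satellite cells lie above every iPax7 library for Notch1, Notch2, Notch3, Dll1, Jag1, Hey1 and Heyl and below every one for Hes6, while the groups overlap for Jag2 and Hes1.

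The receptors come first. Notch1 lies on chromosome 2 from 26313423 to 26372183 (minus strand, GENCODE M1 on NCBIM37, which is mm9), Notch2 on chromosome 3 from 97817461 to 97954290 (plus strand) and Notch3 on chromosome 17 from 32257765 to 32303825 (minus strand). Notch1 had 1357, 1417 and 885 normalised counts in +Dox replicates 1 to 3, 1309 and 1197 in -Dox, and 9177, 20114 and 17329 in satellite cells. Every satellite cell library lay above every iPax7 library, and the -Dox values fell between those of +Dox. Notch1 was lower than in satellite cells by -3.67 on the log2 scale in +Dox (SE 0.360, adjusted p = 7.64e-05) and of -3.63 in -Dox (SE 0.426, adjusted p = 0.00026), while between -Dox and +Dox the log2 fold change was 0.04 (SE 0.363, adjusted p = 1). The standard errors (SE) are approximate and were derived from each fold change and its F statistic.

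Notch3, a receptor also known from the smooth muscle of vessel walls, had 515, 365 and 422 normalised counts in +Dox, 535 and 410 in -Dox, and 13657, 11596 and 10542 in satellite cells. The satellite cell libraries all lay far above the iPax7 libraries, and the iPax7 groups overlapped. Its log2 fold change against satellite cells was -4.78 in +Dox (SE 0.288, adjusted p = 7.77e-06) and -4.66 in -Dox (SE 0.343, adjusted p = 3.35e-05). The log2 fold change between -Dox and +Dox was 0.12 (SE 0.276, adjusted p = 0.896).

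Notch2 differed from the other receptors in being uneven within +Dox. It had 2890, 4053 and 11131 normalised counts in +Dox, 2688 and 2046 in -Dox, and 24914, 15324 and 17119 in satellite cells. Replicate 3 of +Dox lay far above the others, the -Dox libraries lay below all 3 of +Dox, and satellite cells lay above every iPax7 library. The log2 fold change against satellite cells was -1.67 in +Dox (SE 0.473, adjusted p = 0.0182) and -3.01 in -Dox (SE 0.587, adjusted p = 0.00344), and between -Dox and +Dox it was -1.35 (SE 0.540, adjusted p = 0.182). The call in +Dox was lost without +Dox replicate 1 (adjusted p = 0.0557), +Dox replicate 2 (adjusted p = 0.0749) or satellite cell replicate 1 (adjusted p = 0.0535).

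Pax7 binding was read from 2455 Pax7 peaks of +Dox cells. The genes other than Notch2 had their nearest Pax7 peak between 114.9 kb (Hes1) and 671.4 kb (Heyl) from the start site. For each of these 9 peaks, the nearest protein-coding start site was that of another gene. All 9 overlapped H3K27Ac, a mark of active elements, in +Dox, beside 73.2% of all 2455 Pax7 peaks. Those nearest Dll1, Jag1, Hes1 and Hey1 did not in -Dox, where 37.9% of all Pax7 peaks had the mark. The median over 22208 protein-coding start sites was 406.9 kb, and 17.7% of them had a Pax7 peak within 100 kb. No start site of the 10 genes had a Pax7 peak within 1 kb, as against 1.35% of all protein-coding start sites.

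Of the ligands, Jag1 and Dll1 were lower in both iPax7 groups than in satellite cells and Jag2 was not called. Dll1 lies on chromosome 17 from 15504318 to 15513836, Jag1 on chromosome 2 from 136907192 to 136942380 and Jag2 on chromosome 12 from 114146801 to 114167706, all on the minus strand. Jag1 had 81.9, 66.6 and 11.8 normalised counts in +Dox, 75.4 and 54.5 in -Dox, and 18197, 16207 and 18874 in satellite cells. The satellite cell libraries were close together and stood clear of all iPax7 libraries. Jag1 was lower than in satellite cells by -8.36 on the log2 scale in +Dox (SE 0.687, adjusted p = 3.25e-05) and by -8.09 in -Dox (SE 0.821, adjusted p = 0.000133), means that were 332.2-fold and 273.6-fold higher in satellite cells. For Jag1 between -Dox and +Dox the log2 fold change was 0.27 (SE 0.587, adjusted p = 0.889), with overlapping groups.

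Dll1, a Delta ligand that acts in embryonic muscle progenitors, had 48.8, 56.3 and 33.7 normalised counts in +Dox, 50.5 and 46.2 in -Dox, and 2151, 1245 and 444 in satellite cells. The iPax7 libraries lay close together and below every satellite cell library, and the satellite cell libraries spread widely. Its log2 fold change against satellite cells was -4.79 in +Dox (SE 0.656, adjusted p = 0.000438) and -4.72 in -Dox (SE 0.782, adjusted p = 0.00148). From +Dox to -Dox it was 0.06 (SE 0.639, adjusted p = 1).

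Jag2, the second Jagged ligand, did not follow Jag1 and Dll1. It had 136.7, 12.6 and 22.8 normalised counts in +Dox, 54.2 and 34.2 in -Dox, and 125.1, 53.6 and 58.0 in satellite cells. All 3 groups overlapped, and replicate 1 was the highest library of each group. Against satellite cells Jag2 differed by -0.46 on the log2 scale in +Dox (SE 1.10, adjusted p = 0.765) and -0.83 in -Dox (SE 1.26, adjusted p = 0.628), and by -0.38 between -Dox and +Dox (SE 1.24, adjusted p = 0.947). Its direction between +Dox and satellite cells turned without +Dox replicate 2 or satellite cell replicate 1, when the log2 fold change was 0.044 and 0.036, and its direction between -Dox and +Dox turned without +Dox replicate 1, when it was 1.32. The start site of Jag2 carried a peak of H3K27me3, the mark of Polycomb repression, in +Dox and none in -Dox. The peak covered 213 bases around the start. Over the whole gene, Jag2 held 1 H3K27me3 peak in +Dox and 2 in -Dox. The list of H3K27me3 peaks covered 91.7 Mb of the genome in +Dox and 65.9 Mb in -Dox. Whether Jag2 lost the mark on withdrawal was not tested. The 250 bases upstream of Jag2 are shown because of the peak at its start site. They hold neither CANNTG, the E-box that myogenic helix-loop-helix factors bind, nor TGGGAA, the core bound by Rbpj, on either strand, and 87.2% of their bases are G or C.

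Jag2 promoter, chr12:114167707-114167956, minus strand of NCBIM37: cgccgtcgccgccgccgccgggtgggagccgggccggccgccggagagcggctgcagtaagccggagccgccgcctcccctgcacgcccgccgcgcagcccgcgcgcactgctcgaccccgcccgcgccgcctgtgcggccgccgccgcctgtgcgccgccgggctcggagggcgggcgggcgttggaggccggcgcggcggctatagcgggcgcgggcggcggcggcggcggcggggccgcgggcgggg

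This and the next promoter come from the RefSeq table of GRCm38.p6 and were placed on NCBIM37 by an exact match. Over all 32851 promoters of this length in that table, CANNTG was found in 66.2% and TGGGAA in 21.6%. No promoter of the 7 members found in the table held TGGGAA upstream of the start, and Hes1, Hey1 and Heyl were not in it.

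Among the transcription factors, Hes6 was higher in both iPax7 groups than in satellite cells. Hes6 lies on chromosome 1 from 93308060 to 93310615 (minus strand). It had 2179, 2523 and 3805 normalised counts in +Dox, 4766 and 7202 in -Dox, and 578, 166 and 13.2 in satellite cells. The 3 groups did not overlap, with -Dox highest and satellite cells lowest, and satellite cell replicate 3 held only 10 reads of the gene. Hes6 was higher than in satellite cells by 3.49 on the log2 scale in +Dox (SE 0.954, adjusted p = 0.0153) and by 4.57 in -Dox (SE 1.04, adjusted p = 0.00743). The call in +Dox was lost without satellite cell replicate 2 (adjusted p = 0.0540). From +Dox to -Dox the change in Hes6 was 1.08 on the log2 scale, a mean 2.11-fold higher in -Dox, and did not pass the test (SE 0.949, adjusted p = 0.595). The promoter of Hes6 is shown because this gene is the only 1 of the 10 that was higher in iPax7 cells. It precedes the start of the coding transcript and lies within the annotated span of the gene. Capitals mark its E-box (CANNTG), and TGGGAA was not found. A start 816 bases further upstream in the table, whose 250 bases held 3 E-boxes, is not shown.

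Hes6 promoter, chr1:93309800-93310049, minus strand of NCBIM37: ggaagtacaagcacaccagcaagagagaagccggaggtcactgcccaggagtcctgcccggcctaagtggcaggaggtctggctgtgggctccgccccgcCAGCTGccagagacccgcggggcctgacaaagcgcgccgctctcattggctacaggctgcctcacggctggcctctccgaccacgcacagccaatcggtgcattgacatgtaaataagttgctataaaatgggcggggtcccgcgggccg

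Hes1, the broadly expressed Hes factor and a direct target of Notch in many tissues, lies on chromosome 16 from 30064470 to 30067882 (plus strand). It had 399, 491 and 511 normalised counts in +Dox, 277 and 421 in -Dox, and 3314, 257 and 746 in satellite cells. Satellite cell replicate 2 lay below all iPax7 libraries and replicate 1 lay far above them, so that the groups overlapped. The log2 fold change against satellite cells was -1.62 in +Dox (SE 0.765, adjusted p = 0.110) and -2.04 in -Dox (SE 0.903, adjusted p = 0.0984). Without satellite cell replicate 2 both comparisons passed the test, with log2 fold changes of -2.12 (adjusted p = 0.0206) and -2.54 (adjusted p = 0.0207), and without replicate 1 the log2 fold change in +Dox was -0.11. The summed immediate early genes had the same order in the 3 satellite cell libraries, with 849008 normalised counts in replicate 1, 370249 in replicate 2 and 557952 in replicate 3, and their part in the Hes1 level was not tested. For Hes1 between -Dox and +Dox the log2 fold change was -0.42 (SE 0.846, adjusted p = 0.874).

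Hey1, a Hey factor of satellite cells and of developing vessels, lies on chromosome 3 from 8663362 to 8667039 (minus strand). It had 0, 13.3 and 0.91 normalised counts in +Dox, 0 and 1.85 in -Dox, and 4851, 3386 and 2861 in satellite cells. It was close to 0 in each iPax7 library, and the satellite cell libraries stood clear of them. Over the groups it had 8380 reads in satellite cells, 19 in +Dox and 2 in -Dox. Scaled for library size, satellite cells were 736.4-fold higher than +Dox (95% interval 471.3 to 1224, counting error only) and 4019-fold higher than -Dox (1112 to 33191). Hey1 passed the filter on low counts through the satellite cells alone, the group where it was high, so its tests are not given as support. Of the 19 reads in +Dox, 18 were in replicate 2, so the 2 iPax7 groups cannot be ordered at this depth.

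Heyl, a Hey factor known in vascular smooth muscle as a target of Notch3, lies on chromosome 4 from 122910799 to 122927118 (plus strand). It had 0, 39.2 and 37.3 normalised counts in +Dox, 330 and 550 in -Dox, and 37832, 15195 and 15912 in satellite cells. The 3 groups did not overlap, with +Dox lowest and satellite cells highest. The log2 fold change between -Dox and +Dox was 4.11 (SE 0.956, adjusted p = 0.0308), with a mean 17.2-fold higher in -Dox. Against satellite cells it was -9.82 in +Dox (SE 1.15, adjusted p = 0.000198) and -5.71 in -Dox (SE 1.15, adjusted p = 0.00402), so that even after its rise Heyl stayed 52.2-fold below satellite cells. The rise after withdrawal did not pass the test in every fit. Its adjusted p was 0.0768 when only the 5 iPax7 libraries were fitted, and 0.0730, 0.0669, 0.0753 and 0.142 without +Dox replicate 2, +Dox replicate 3, -Dox replicate 1 and -Dox replicate 2. The log2 fold change lay between 3.52 and 4.59 over the fits that each left out 1 library.

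**Figure D2:**
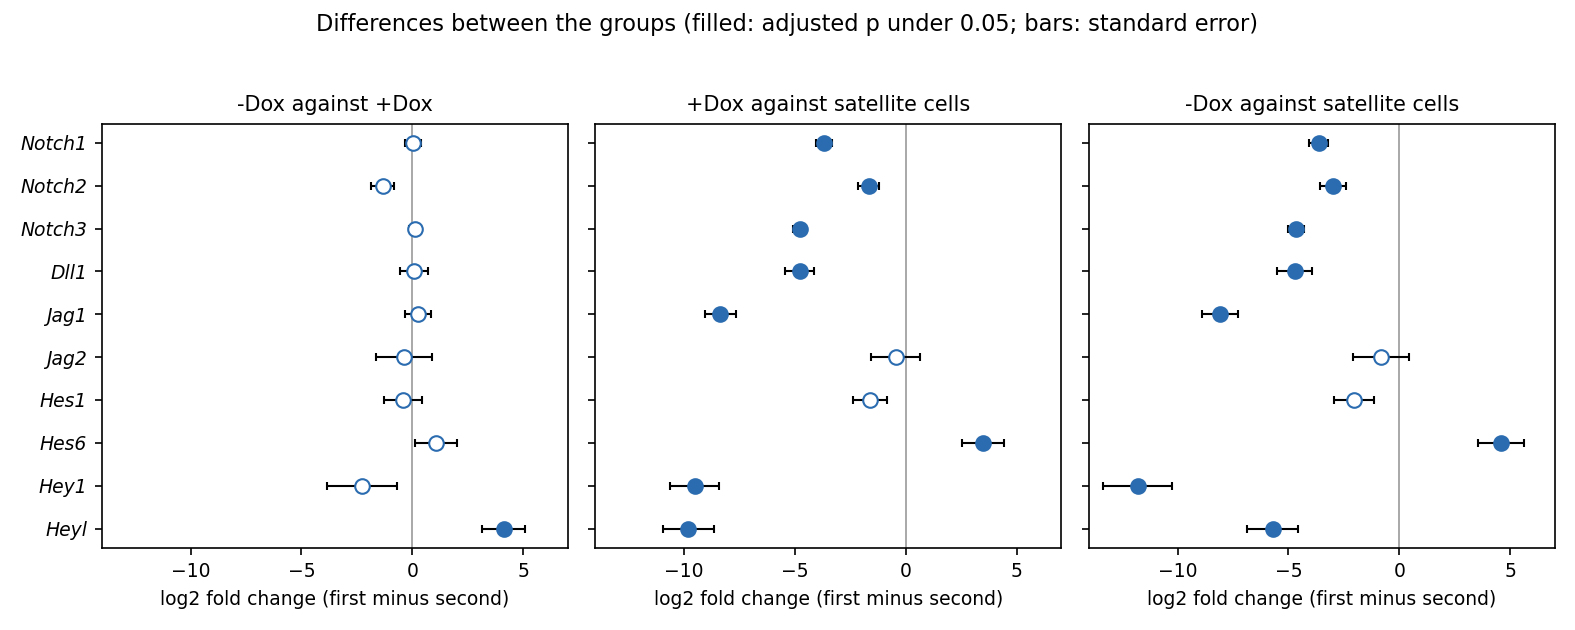
Log2 fold change (first group minus second) of each gene in the 3 comparisons, with bars of 1 approximate SE and filled points where the adjusted p (edgeR) was under 0.05. Heyl is the only filled point between -Dox and +Dox, and 7 genes lie left and Hes6 right of 0 in both comparisons with satellite cells.

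The number of genes whose groups did not overlap was 8 of 10 in each comparison with satellite cells, beside 56.5% of all genes for +Dox and 64.3% for -Dox. Between -Dox and +Dox it was 3 (Notch2, Hes6 and Heyl), beside 45.3% of all genes, and the direction was downward for Notch2 and upward for Hes6 and Heyl in the -Dox libraries.

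Levels can be set beside each other between genes only per length. On a scale of counts divided by exon length and library size (RPKM), Hes6 was the highest of the 10 genes in +Dox with 44.9 ± 13.6 (SD, n = 3), followed by Notch2 with 12.1 ± 8.98 and Hes1 with 6.73 ± 0.861, whose ranges overlapped. Notch1 with 2.72 ± 0.649 and Notch3 with 1.14 ± 0.199 came next. The other 5 genes (Jag2, Dll1, Jag1, Heyl and Hey1) lay between 0.299 and 0.0456, each overlapping its neighbour in the order. In -Dox, Hes6 was highest again with 94.8 ± 27.3 (SD, n = 2), Hes1 with 5.02 and Notch2 with 4.76 overlapped, and Heyl moved up to the fifth place with 2.05 ± 0.726. In satellite cells Heyl led with 107.1 ± 60.0 (SD, n = 3) and overlapped Jag1 with 66.9 ± 5.22, and then Notch2 with 38.5, Hey1 with 35.5, Notch1 with 34.6 and Notch3 with 31.4 could not be told apart by their ranges. Hes1 with 20.7 ± 23.6, Dll1 with 7.56 ± 5.04 and Hes6 with 4.00 ± 4.63 overlapped from neighbour to neighbour, and Jag2 was lowest with 0.412 ± 0.209. The ranges of the 3 receptors thus overlapped in satellite cells, whereas in +Dox they followed the order Notch2, Notch1 and Notch3 with no overlap.

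**Figure D3:**
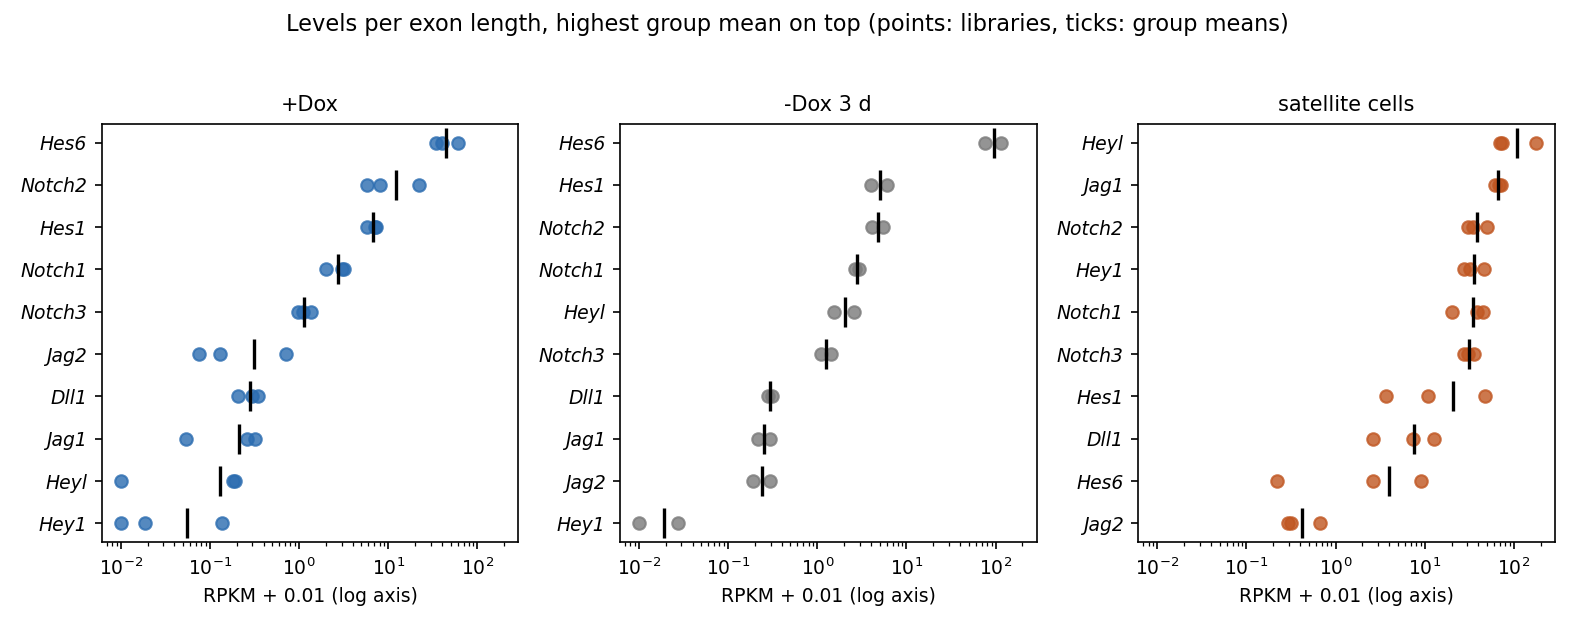
RPKM plus 0.01 (log axis) of the 10 genes in each group, ordered by group mean, with a point for each library and a tick at the mean. Hes6 stands first in both iPax7 groups with 44.9 and 94.8 and ninth in satellite cells with 4.00, where Heyl is first with 107.1.

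Chromatin at the start sites was described from peak lists, of which there is 1 for each assay and condition, so no test was possible. A start site was counted as marked when a peak lay within 1 kb. All 10 genes had an ATAC-seq peak in +Dox and at 12 h, 24 h and 3 days after withdrawal, beside 61.0%, 59.1%, 62.2% and 63.5% of 22225 protein-coding start sites. In satellite cells 9 of the 10 had a peak, beside 56.6% of all. The exception was Notch3, which had 4 peaks elsewhere in its body in that list. H3K4me3, a mark of active and poised promoters, and H3K4me1 were at all 10 start sites in both conditions, beside 58.8 to 64.4% of all for H3K4me3 and 60.1 to 63.0% for H3K4me1.

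The genes fell into 2 sets by the other marks. Notch1, Notch2, Notch3, Hes1 and Hes6 had H3K27Ac and no H3K27me3 at the start site in both conditions. Dll1, Jag1, Jag2, Hey1 and Heyl had H3K27me3 in +Dox, and these are the 5 genes of lowest RPKM in that condition. In -Dox the same set without Jag2 had the mark at the start site, while Jag2 held 2 peaks elsewhere in the gene. H3K27me3 was found at 20.2% of all start sites in +Dox and at 18.4% in -Dox. All marked genes also carried H3K4me3, and both marks together were found at 11.3% of all start sites in +Dox and 11.8% in -Dox. With the window narrowed to 500 bases, 3 of the 10 genes had H3K27me3 in +Dox and 2 in -Dox. Within the H3K27me3 set, Dll1 and Jag1 also had a small H3K27Ac peak in +Dox, covering 361 and 238 of the 2001 bases around the start, and in -Dox Jag1 alone had it, with 495 bases.

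**Figure D4:**
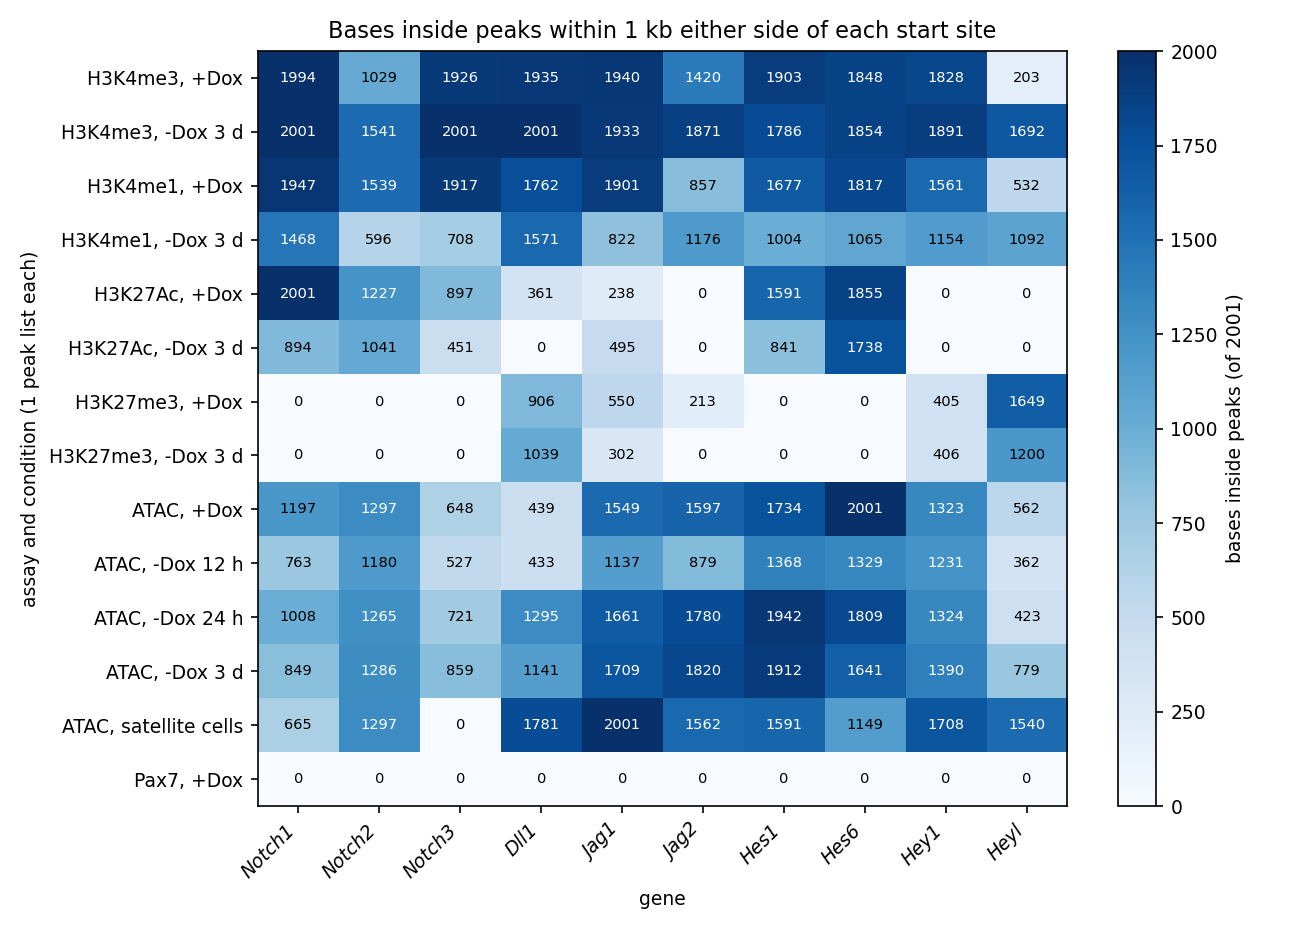
Number of bases inside peaks among the 2001 bases around each start site (colour scale and figures in the cells), for each assay and condition. H3K27me3 is found at Dll1, Jag1, Hey1 and Heyl in both conditions and at Jag2 in +Dox alone, and none of the 10 start sites holds a Pax7 peak.

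Heyl, which rose after withdrawal, also had the largest shift in H3K4me3, from 203 of the 2001 bases in +Dox to 1692 in -Dox, while the other 9 genes held 1029 to 1994 bases in +Dox and 1541 to 2001 in -Dox. Its H3K27me3 covered 1649 bases in +Dox and 1200 in -Dox. The list of H3K4me3 peaks covered 63.6 Mb of the genome in +Dox and 155 Mb in -Dox, so a wider cover in -Dox is not particular to Heyl. The highest fold enrichment of an ATAC-seq peak at the Heyl start site was 6.37 in +Dox, 3.27 at 12 h, 6.66 at 24 h and 15.0 at 3 days, and 12.3 in satellite cells. For Hes6 it was 58.2, 25.3, 49.7 and 36.6 at the same points and 14.1 in satellite cells. From +Dox to 3 days the fold enrichment fell at Notch1 and Hes6 and rose at all other members. It went from 4.91 to 9.99 at Jag2 and from 38.0 to 59.0 at Hes1, so a rise is not particular to Heyl. All 10 genes had their lowest fold enrichment of the iPax7 points at 12 h, the list with the fewest peaks of those 4 (97637 peaks against 116140, 117250 and 145880).

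The rest of the pathway was read from a list of 53 further genes, of which 48 were tested. Dll3, Hes2, Hes3, Hes5 and Hes7 did not pass the filter. Between -Dox and +Dox, 2 of the 48 rose and 2 fell, beside 4.66% and 3.04% of all genes. Dlk1, a membrane protein related to the Delta ligands, rose from 65.3, 97.0 and 224 normalised counts in +Dox to 2597 and 2992 in -Dox, with a log2 fold change of 4.44 (SE 0.815, adjusted p = 0.0102). Neurl1a, a ubiquitin ligase of the Neuralized family, rose by 4.15 (SE 0.996, adjusted p = 0.0354). Dtx4, a Deltex ubiquitin ligase, had 575, 458 and 266 normalised counts in +Dox and 103 and 54.5 in -Dox, and changed by -2.46 (SE 0.483, adjusted p = 0.0143). Ctbp2, a corepressor, changed by -1.15 (SE 0.277, adjusted p = 0.0359). The call of Neurl1a was lost without any 1 of the iPax7 libraries (adjusted p up to 0.132), that of Ctbp2 without +Dox replicate 1, +Dox replicate 2 or either -Dox library (adjusted p up to 0.272), and those of Dlk1 and Dtx4 without -Dox replicate 2 (adjusted p = 0.0582 and 0.143). Nrarp, a feedback inhibitor and target of Notch, had 39.8, 21.5 and 14.6 normalised counts in +Dox and 0.92 and 1.84 in -Dox, where it had 3 reads in all, and the ratio was 18.8 (95% interval 6.24 to 92.6, counting error only, adjusted p = 0.139).

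Against satellite cells, 17 of the 48 were lower and 5 higher in +Dox, and 18 were lower and 3 higher in -Dox. Over all genes tested, 25.1% were lower and 19.8% higher in +Dox, and 20.9% and 18.1% in -Dox. Called in either direction were 22 of the 48 in +Dox and 21 in -Dox, beside 44.9% and 39.0% of all genes. The median log2 fold change of the 48 was -0.92 and -1.23, nearer to that of all genes than the median of the 10 genes was. Rbpj, the DNA-binding partner of all Notch receptors, did not pass the test in any comparison. It had 14502, 10793 and 3426 normalised counts in +Dox, 11181 and 12454 in -Dox, and 12984, 10619 and 11246 in satellite cells, with log2 fold changes of -0.28 for +Dox and 0.02 for -Dox against satellite cells (adjusted p = 0.627 and 0.977). The lowest library was +Dox replicate 3, and all others lay between 10619 and 14502.

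The other endothelial members of the pathway had lower means in iPax7 cells than in satellite cells, though Notch4 was not called in +Dox. Dll4, the Delta ligand of endothelial cells, had no read in any iPax7 library and 611, 1082 and 1022 normalised counts in satellite cells, which were at least 1139-fold higher than +Dox and at least 654.2-fold higher than -Dox (floor of 3 reads over the group). Hey2, the remaining Hey factor, was also without a read in iPax7 cells and had 116, 2.68 and 181 normalised counts in satellite cells, at least 126.3-fold higher than +Dox and at least 72.6-fold higher than -Dox. Notch4, the receptor of endothelial cells, had 100.1, 96.5 and 40.9 normalised counts in satellite cells, none in -Dox and 0.75, 0 and 21.9 in +Dox. Satellite cells were at least 57.2-fold higher than -Dox and 12.0-fold higher than +Dox (95% interval 7.84 to 19.0, counting error only). Dll4, Hey2 and Notch4 passed the filter on low counts through the satellite cells alone, the group where they were high, so their tests are not given as support. Like the endothelial markers given above, these 3 genes were higher in satellite cells than in iPax7 cells. The endothelial sum was 18511, 26752 and 23464 in satellite cell replicates 1 to 3, an order that Dll4 shared and Hey2 and Notch4 did not. The part of endothelial cells was not tested.

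Dtx4 was lower than in satellite cells by -4.07 in +Dox (adjusted p = 0.000122) and -6.53 in -Dox (adjusted p = 8.38e-05). Nrarp had 80.3, 63.0 and 38.2 normalised counts in satellite cells. It was lower in -Dox by -5.33 (adjusted p = 0.0243), with 3 reads there, and was not called in +Dox (adjusted p = 0.375). Without -Dox replicate 1 or 2 the log2 fold change of Nrarp in -Dox was -4.94 and -5.81. Each of these fits kept only the other -Dox library, so they do not show that the call holds. Aph1c, a subunit of γ-secretase, was lower in +Dox by -3.25 (adjusted p = 0.0155), and Tle1, a Groucho corepressor, was lower in both by -2.95 and -2.47 (adjusted p = 0.00592 and 0.0283). The higher genes sat at other steps. Lfng, a Fringe glycosyltransferase that alters which ligands a receptor answers to, had 97.6, 128 and 165 normalised counts in +Dox. It had 3.95, 4.02 and 0 in satellite cells, a log2 fold change of 5.55. Over the groups Lfng had 484 reads in +Dox and 6 in satellite cells. Scaled for library size, +Dox was 48.3-fold higher (interval 22.0 to 132, counting error only). Lfng passed the filter on low counts through +Dox alone, the group where it was high, so its test is not given as support. Poglut1, which adds glucose to Notch, was higher in +Dox by 1.08 (adjusted p = 0.00627), and Adam10, the protease of the first cut, was higher by 1.16 in +Dox and 0.96 in -Dox (adjusted p = 0.00493 and 0.0205). Dlk1 was higher in +Dox by 2.66 (adjusted p = 0.0188) and in -Dox by 7.10 (adjusted p = 0.000428), Dlk2, its paralog, in +Dox by 4.75 (adjusted p = 0.0276), and Neurl1a in -Dox by 4.08 (adjusted p = 0.0104). These values are log2 fold changes. The calls of Tle1 and Adam10 in -Dox were lost without either -Dox library, that of Tle1 also without satellite cell replicate 3 (adjusted p = 0.0554), that of Dlk1 in +Dox without +Dox replicate 3 or satellite cell replicate 3 and when only the 2 groups were fitted (adjusted p = 0.0805), and that of Dlk2 without any 1 of the +Dox libraries or satellite cell replicate 1 (adjusted p up to 0.0625).

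**Figure D5:**
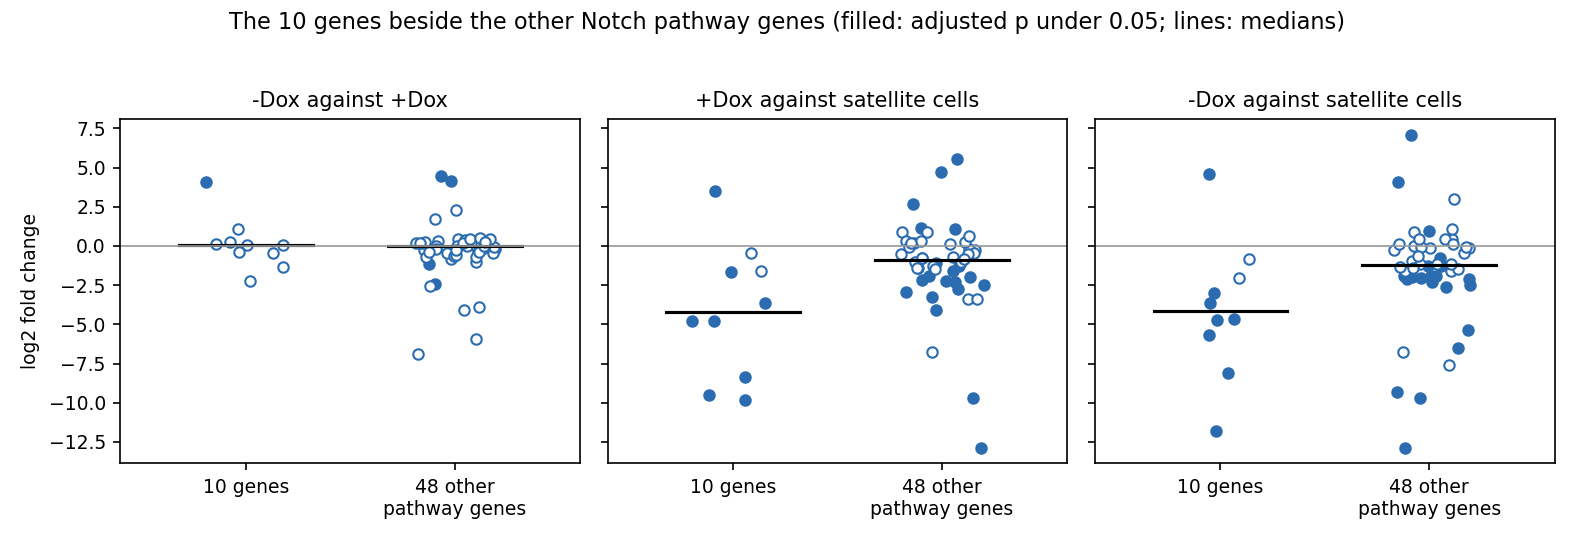
Log2 fold change of the 10 genes and of the 48 other tested pathway genes in each comparison, with filled points for an adjusted p under 0.05 and a line at each median. The medians of the 10 genes and the others lie at -4.23 and -0.92 for +Dox and at -4.15 and -1.23 for -Dox against satellite cells. Points of genes without reads in a group depend on the fit's prior count.

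Genes whose log2 levels ran most like each member were sought over the 8 libraries among 11356 genes (11357 for Jag2) with a mean of at least 100 normalised counts. Since the libraries fall into 3 groups, these correlations mostly restate the differences between groups. The nearest gene was Bcar3 for Notch1 (Pearson r = 0.997), Snhg8 for Notch2 (r = 0.985) and Csf1r, which is also on the blood marker list, for Notch3 (r = 0.998). It was D630003M21Rik for Dll1 (r = 0.996), Zfhx4 for Jag1 (r = 0.997) and Gba2 for Jag2 (r = 0.914). It was Miip for Hes1 (r = 0.968), Irak2 for Hes6 (r = 0.997), Igflr1 for Hey1 (r = 0.994) and Dusp8 for Heyl (r = 0.988). The lowest of these values was that of Jag2.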

How the data were processed

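The library kit and strand setting of the RNA-seq were not given in the sources used here. The authors deposited raw read counts per gene symbol, in the form HTSeq writes, 1 file per replicate. Bowtie2, TopHat2, HTSeq and the mm9 build (NCBIM37) are named in the submitters' processing notes, without a role for each. The ATAC-seq peak lists that the authors deposited give the fold enrichment ratio and the −log10 q of MACS2 2.0.10, called on merged replicates. Their ChIP-seq lists give regions without a score, called on merged replicates for histone marks, and for Pax7 kept when found in at least 2 +Dox replicates and in no -Dox replicate. Peaks were not called again.

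Counts were tested in edgeR 4.0.16 (R 4.3.3) with TMM scaling, filterByExpr and the quasi-likelihood test, with 1 mean per group over all 8 libraries, Benjamini-Hochberg adjustment and a threshold of 0.05. Lines of reads on no gene made up at most 0.0031% and stayed out. RPKM used the exons of coding transcripts in GENCODE M1, in which 20660 of 24466 symbols were found. Start sites are those of coding transcripts. Long noncoding genes overlap Notch1, Notch3 and Dll1 on the opposite strand and are not rows of the count files, so their reads cannot be told apart from those of these genes.

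The members, the pathway list and the marker lists were chosen with earlier results of these data known. The genes named are all 10 members, Pax7, Myf5, Myog and Myod1 as checks of the labels, Rbpj, the 5 called genes of the pathway list with the largest log2 fold change in each direction of each comparison, the gene most like each member, and marker genes at 0. Replicate numbers come from the names of the deposited files. Deviations of same-numbered libraries from their group means correlated between -0.0398 and 0.0272, so the numbers share no more than a name. Alternatives were DESeq2 1.42.0, RLE size factors, no filter, a filter of 1 CPM in 2 libraries, only the groups compared, a replicate block, each library left out, a window of 500 bases and a −log10 q of at least 10. The test between -Dox and +Dox was checked on simulated counts. Peak lists of C2C12 cells and myotubes were not used. The Pax7 peak nearest Notch2 and 2 marker genes are not reported here.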

Additional observations from a re-analysis of the deposited data

How the results depend on the processing

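Every call of a gene among the 10 against satellite cells kept its direction. Under RLE size factors, both other filters, fits of the compared groups alone and the replicate block, 8 genes were called in each comparison. Under DESeq2 the counts were 8 and 9. These counts include Hey1, whose tests are not given as support. Over fits without 1 library they ran from 7 to 8 for +Dox and from 8 to 9 for -Dox. Between -Dox and +Dox the 1 call (Heyl) also stood under DESeq2, RLE and both filters. DESeq2 was run on all 8 libraries only. The count was 0 when only the 2 groups were compared in edgeR (2 genes at an unadjusted p under 0.05). It was 0 in the replicate block (1 gene at an unadjusted p under 0.05). Over fits without 1 +Dox or satellite cell library it ran from 0 to 1. The replicate numbers pair nothing, so calls lost under the block were not read as weaker effects.

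Over all genes, the count between -Dox and +Dox was 1142, against 2277 with DESeq2, 2155 with only the 2 groups and 742 with the replicate block, and 488 to 1444 without 1 library. Against satellite cells it ran from 5159 to 6650 for +Dox and from 3204 (without -Dox replicate 1) to 6131 for -Dox. Start sites of the 10 genes with a peak numbered 6 instead of 10 in the ATAC-seq list at 12 h with a −log10 q of at least 10, and 3 instead of 5 (+Dox) and 2 instead of 4 (-Dox) for H3K27me3 within 500 bases. The stronger part of each histone list was not run, since these lists hold no score.

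Single genes turned direction only where not called. Under the replicate block, the log2 fold changes between -Dox and +Dox were -0.36 for Dll1 and 0.010 for Jag2, that of Neurl1a for +Dox against satellite cells was 0.60, and that of Rbpj for -Dox against satellite cells was -0.31. Without 1 library, the ranges between -Dox and +Dox were -0.15 to 0.18 for Notch1, -0.083 to 0.31 for Notch3, -0.12 to 0.24 for Dll1, -0.19 to 0.72 for Jag1, -0.83 to 1.32 for Jag2, -5.36 to 0.96 for Hey1 and -0.10 to 0.74 for Rbpj. For +Dox against satellite cells they were -2.10 to 0.044 for Jag2, -0.024 to 0.44 for Myf5, -0.63 to 0.73 for Neurl1a and -0.67 to 0.12 for Rbpj, and for -Dox against satellite cells -0.12 to 4.25 for Dlk2 and -0.040 to 0.11 for Rbpj. Dll4 and Hey2, without reads in either iPax7 group, have no direction there. Hey2 did not pass the filter without satellite cell replicate 1 or 3. The cause was not tested.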
